A study of Mus musculus and Mus spretus with 72 samples.

Results

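The genes described here are the mouse Zfp genes, named for zinc finger proteins. Members were the array probes whose single gene symbol was Zfp followed by a digit. This gave 204 probes for 174 genes among 22089 probes in all, of which 15597 others carried 1 gene symbol. The symbol is a naming rule and not a protein class: most mouse genes so named encode C2H2 zinc finger proteins, but Zfp36 and Zfp36l1 encode CCCH finger proteins that bind and destabilise mRNA, and they were kept because the rule takes them in.

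The study compared gene expression between mouse taxa in 3 tissues (brain, testis and a sample labelled liver/kidney), using 72 two-colour arrays. Each array set the RNA of 1 male, about 12 weeks old, against pooled RNA of that tissue from 9 C57BL6 animals. In each tissue the groups were Mus musculus domesticus (dom, 6 arrays), Mus musculus musculus (mus, 6 arrays), Mus musculus castaneus (cas, 3 arrays), a Mus musculus group whose sub-species the labels leave unnamed (ssp, 6 arrays) and Mus spretus (spretus, 3 arrays). The brain array of mus animal 8 carries a title of mus and a channel label of domesticus, and it was kept in mus. Values are the deposited log ratios, read as log2 of sample over pool. Neither the base nor the direction is stated in the sources used here, so every sign below rests on that reading. A ratio to a pool gives no level of a gene, so the tissue labels could not be checked by the abundance of marker genes.

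C2H2 zinc fingers are small folds held by a zinc ion, and arrays of them let a protein read a DNA sequence. Many mouse members also carry a KRAB domain, which recruits the corepressor Trim28 (KAP1) and the histone methyltransferase Setdb1 and so silences transposable elements. The family lies in clusters of tandem copies, and its members turn over quickly in mammalian evolution. Other members act in stem cell identity, in germ cells or on RNA.

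The promoters of 4 members are shown because these were the only Zfp genes with a probe that passed the test against spretus in more than 1 tissue. Zfp719 also passed in 2 tissues, but on different probes and in opposite directions. Each window holds 300 bases around the gene start in RefSeq (GRCm38.p6), 5′ to 3′ on the gene's strand, with matches to the searched motifs in capitals.
Zfp101, chr17:33394588-33394887, minus strand: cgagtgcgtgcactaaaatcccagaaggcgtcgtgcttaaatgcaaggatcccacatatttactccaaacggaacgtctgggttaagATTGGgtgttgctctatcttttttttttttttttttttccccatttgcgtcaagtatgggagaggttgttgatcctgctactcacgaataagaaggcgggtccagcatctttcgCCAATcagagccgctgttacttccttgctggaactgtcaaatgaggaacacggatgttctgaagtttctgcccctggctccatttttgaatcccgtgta
Zfp579, chr7:4996052-4996351, minus strand: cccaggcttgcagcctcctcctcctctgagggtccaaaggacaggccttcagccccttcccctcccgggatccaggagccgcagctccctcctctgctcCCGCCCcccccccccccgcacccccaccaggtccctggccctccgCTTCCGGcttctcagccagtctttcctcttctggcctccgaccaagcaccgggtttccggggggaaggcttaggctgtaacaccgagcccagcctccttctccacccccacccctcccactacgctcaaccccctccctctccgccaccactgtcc
Zfp2, chr11:50916127-50916426, minus strand: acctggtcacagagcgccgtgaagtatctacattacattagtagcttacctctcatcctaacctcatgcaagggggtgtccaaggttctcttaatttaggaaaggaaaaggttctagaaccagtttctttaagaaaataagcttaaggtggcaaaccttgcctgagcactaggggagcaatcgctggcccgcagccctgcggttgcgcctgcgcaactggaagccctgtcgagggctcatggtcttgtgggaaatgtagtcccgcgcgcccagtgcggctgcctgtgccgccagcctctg
Zfp296, chr7:19577037-19577336, plus strand: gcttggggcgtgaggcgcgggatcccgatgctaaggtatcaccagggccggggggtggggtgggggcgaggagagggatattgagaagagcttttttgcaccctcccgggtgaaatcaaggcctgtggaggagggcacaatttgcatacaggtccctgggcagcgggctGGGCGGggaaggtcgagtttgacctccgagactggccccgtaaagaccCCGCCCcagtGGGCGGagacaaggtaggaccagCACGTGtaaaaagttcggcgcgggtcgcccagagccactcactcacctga
Motifs were searched on both strands without a mismatch, and 7 were used. Of 32851 RefSeq windows, 35.7% held GGGCGG (the GC box), 37.4% held CCAAT (the CCAAT box) and 13.6% held TATAAA (the TATA box). A further 8.86% of windows held CCGGAAG (an ETS-type core), 2.75% held AAGATGGC (a YY1-type core), 3.24% held ACTACAA (part of the Zfp143 motif) and 7.15% held CACGTG (the E-box). The Zfp101 window held 2 matches to the CCAAT box, and the Zfp579 window held 1 each to the GC box and the ETS-type core. The Zfp296 window held 3 matches to the GC box and 1 to the E-box, and the Zfp2 window held none of the 7. Zfp101 and Zfp579, which were low together in spretus brain and liver/kidney, shared none of these matches. Among the 175 windows of the 145 Zfp genes that had one, the ETS-type core was held by 19.4% and the TATA box by 9.71%. The Zfp windows had a median of 15 CpG dinucleotides, against 7 over all windows.

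Differences were tested with limma across all probes of a tissue, and a probe is called where its p, adjusted by the Benjamini-Hochberg method over all of them, was under 0.05. A probe was tested where every group had at least 2 values, so that brain kept 196 Zfp probes, liver/kidney 196 and testis 200. Zfp109, Zfp281, Zfp292 and Zfp397 were tested in no tissue, and Zfp580, Zfp773, Zfp955b and Zfp995 in testis alone. There were 4 contrasts. The first set mus against dom (mus minus dom). In the cas contrast, dom and mus were averaged and subtracted. For the ssp contrast the average of dom, mus and cas was subtracted, and for the spretus contrast that of the 4 musculus groups. The arrays fall into 3 classes by which spots lack a value, and every spretus array but 1 is in class 2 while most dom and ssp arrays are in class 1. The spretus liver/kidney array of animal 2 is the only one of class 3 in that tissue. The median r between duplicate spots of an array was 0.512 over Zfp probes and 0.569 over other named probes. The labels give no sign that the animals of a group came from separate litters or sites, so p-values measure the spread between these animals.

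In the fits of all 5 groups, Zfp probes were called almost only against spretus. In brain 6 of 196 Zfp probes (3.06%) were called in the spretus contrast, against 4.09% of other named probes and 3.95% of all probes. In liver/kidney 16 of 196 (8.16%) were called, against 7.89% of other named probes and 7.49% of all probes. In testis 15 of 200 (7.50%) were called, against 9.49% of other named probes and 9.42% of all probes. The share of Zfp probes called was thus near the background in each tissue. At unadjusted p under 0.05 stood 51 Zfp probes in brain (26.0%, other named 19.5%), 40 in liver/kidney (20.4%, other named 22.4%) and 53 in testis (26.5%, other named 23.3%). The median size of the spretus difference, sign aside, was 0.14, 0.10 and 0.13 for Zfp probes in these tissues and 0.12, 0.11 and 0.11 for other named probes. Between mus and dom no Zfp probe was called in any tissue, where the background over all probes was 0.223% (brain), 0.591% (liver/kidney) and 0% (testis). Unadjusted p was under 0.05 for 16, 7 and 9 Zfp probes in these tissues (8.16%, 3.57% and 4.5%, beside 9.33%, 6.32% and 6.59% of all probes). In the ssp contrast no Zfp probe was called either, beside 0.097%, 0.0436% and 0% of all probes. There 21, 24 and 15 Zfp probes had an unadjusted p under 0.05 (10.7%, 12.2% and 7.5%, beside 15.7%, 10.6% and 4.86% of all probes). In the cas contrast the count was 0 in brain (0.0097% of all probes), 0 in testis (0.0193%) and 2 in liver/kidney, where 1.11% of all probes were called. Its unadjusted p was under 0.05 for 23 Zfp probes in brain (11.7%, all probes 12%), 38 in liver/kidney (19.4%, all probes 14.8%) and 13 in testis (6.5%, all probes 6.25%). Array weights, which lower the weight of arrays far from their group, called 4 Zfp probes between mus and dom in both brain and liver/kidney. Over all probes they called 383 and 319 there, beside 46 and 122 in the main fit.

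**Figure D1:**
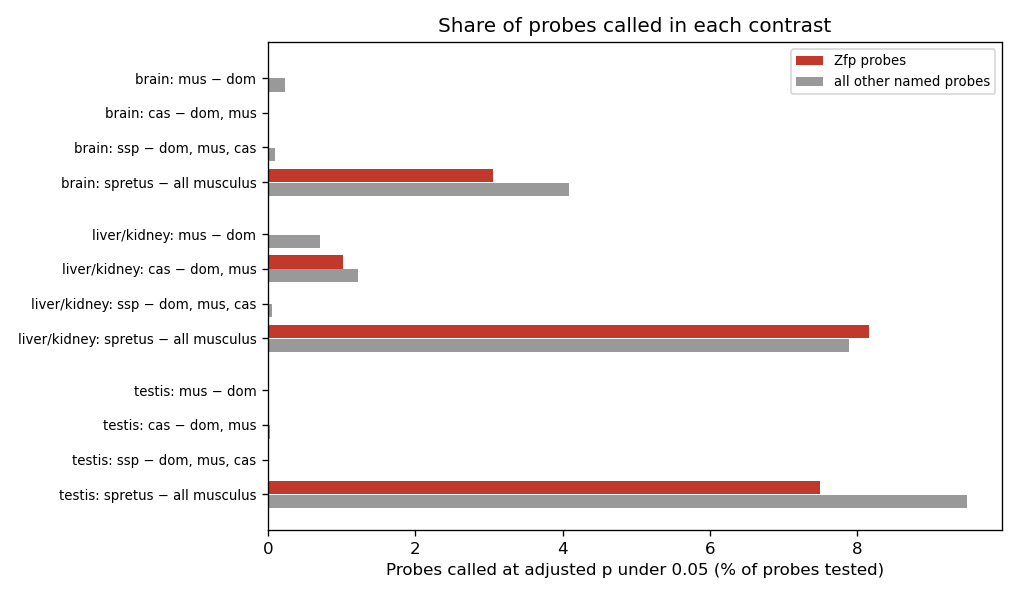
Percent of tested probes called in each of the 12 contrasts, for Zfp probes (red bars) and all other named probes (grey bars). The bars for spretus are close in length in each tissue, 8.16% against 7.89% in liver/kidney for example, and the Zfp bars of 8 of the other contrasts are empty.

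More Zfp calls were lower than higher in spretus in each tissue, an excess that in testis depends on the processing. Probe sequences were not available here, so the match of each probe to spretus RNA was not tested. A lower spretus ratio therefore cannot be told apart from a weaker match to the probe. All 6 brain calls were lower in spretus (2.07% of all probes were called lower and 1.88% higher), while other named probes split into 281 higher and 318 lower. In liver/kidney 4 were higher and 12 lower (3.03% and 4.46% of all probes), beside 478 higher and 681 lower among other named probes. In testis 5 were higher and 10 lower (5.63% and 3.79% of all probes), where other named probes went the other way, with 839 higher and 562 lower. Over the 3 tissues 28 of 37 Zfp calls (75.7%) were lower, beside 49.4% of the 3159 calls of other named probes. The 37 calls came from 32 probes of 31 genes and from the same spretus animals, so they are not independent. Zfp101 was counted 3 times and Zfp579 and Zfp2 each 2 times as lower, and Zfp296 2 times as higher. Few calls held in every fit that left out 1 array: 1 of 6 for brain (lower), 0 of 16 for liver/kidney and 3 of 15 for testis (all higher). The share of calls over all probes that held in every such fit was not counted, so these losses cannot be read as particular to Zfp probes. In testis the replicate block and the array class as a fixed term each gave 3 higher and 3 lower, and the class as a random block gave 4 and 4. Quantile normalisation left 1 Zfp call in testis, a higher one, while calls over all probes fell from 1956 to 486. In liver/kidney the class as a random block left 0 Zfp calls, while those over all probes fell from 1547 to 113. Probes of other C2H2 families, such as Zbtb, Klf and Prdm genes, numbered 90 in each tissue, of which brain had 6 calls (4 lower), liver/kidney 8 (4 lower) and testis 11 (3 lower). Over all tested Zfp probes, 46.9% of differences were above 0 in brain, beside 53.5% of other named probes. In liver/kidney the shares were 48.5% and 48.8%, and in testis they were 43.5% and 52.1%. The median Zfp difference was -0.009 (brain), -0.0036 (liver/kidney) and -0.03 (testis). The median of Zfp probes relative to other named probes lay between -0.054 and -0.045 on the 3 spretus testis arrays and between -0.044 and 0.013 on the other testis arrays.

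Zfp101 was lower in spretus in all 3 tissues. In brain its spretus log ratios were -0.30, -0.46 and -0.53 for animals 1, 2 and 3. The lowest, median and highest were -0.17, 0.03 and 0.31 in dom (5 values), -0.12, 0.19 and 0.22 in mus and -0.20, 0.22 and 0.32 in ssp, and cas held -0.22, 0.10 and 0.09. Every spretus brain value lay below all 20 musculus values, and the difference was -0.50 ± 0.10 (SE, adjusted p = 0.00745), which became -0.45 (adjusted p = 0.0677) without animal 3. In liver/kidney the spretus values were -0.20, -2.08 and -0.19, again below all 21 musculus values, which ran from -0.16 to 1.21, and the difference was -0.95 ± 0.26 (adjusted p = 0.028). That size rests on animal 2, without which the difference was -0.32 (adjusted p = 0.49). In testis the spretus values were -0.30, -0.90 and -0.67 and overlapped a musculus range of -0.58 to 0.24. The testis difference was -0.46 (adjusted p = 0.0294), and it was -0.32 (adjusted p = 0.306) without animal 2. Within class 2, brain spretus minus mus was -0.53 (adjusted p = 0.269) and liver/kidney spretus minus cas was -0.36 (adjusted p = 0.679), so the sign stayed negative but no such call was made. These fits called 5 of 20485 and 0 of 20552 probes, so a missing call there decides nothing. In class 2 of testis, Zfp101 was not called either: -0.48 against mus (adjusted p = 0.256) and -0.29 against cas (0.465). Those testis fits called 275 and 248 of 20681 probes. The class 2 brain fit of spretus minus ssp called 105 of 20485 probes and 0 of 192 Zfp probes.

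Zfp579 was lower in brain and liver/kidney. Brain spretus values were -0.44, -0.26 and -0.40, below all 20 musculus values, whose range was -0.22 to 0.41. The brain difference was -0.45 ± 0.08 (adjusted p = 0.00292), and it was called in each of the 24 fits that left out 1 array. In liver/kidney 2 spretus arrays had a value, -0.26 and -0.59, and the difference was -0.48 (adjusted p = 0.00361). It became -0.31 without animal 3, a fit with 1 spretus value. In testis the difference was -0.21 (adjusted p = 0.144), and neither the testis and brain contrasts (adjusted p = 0.414) nor the testis and liver/kidney contrasts (adjusted p = 0.262) were shown to differ.

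Zfp2 was lower in brain and testis. Brain spretus values were -0.30, -0.45 and -0.49, within the musculus range only because 2 cas arrays held -0.51 and -0.35, and the difference was -0.39 (adjusted p = 0.0444). That call was lost in 14 of the 24 fits that left out 1 array, among them each fit without a spretus array. Testis values were -0.50, -0.97 and -0.58, and the difference was -0.49, which became -0.34 (adjusted p = 0.244) without animal 2. In liver/kidney the spretus values were -0.49, -0.14 and 0.21 and lay across the musculus range.

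Zfp296, a partner of the stem cell factor Klf4, was the only member higher in more than 1 tissue. Testis spretus values were 1.00, 0.79 and 0.85, above all 21 musculus values, whose highest was 0.65 in ssp. The testis difference was 0.76 ± 0.13 (adjusted p = 0.00047), and it was called in each of the 24 fits that left out 1 array. Quantile normalisation took it to 0.41 (adjusted p = 0.102). Within class 2 it was also called against mus (0.75, adjusted p = 0.0354, beside 1.33% of all probes called) and cas (0.65, adjusted p = 0.0412, beside 1.2%). Liver/kidney values were 0.28, 0.90 and 0.17, and the difference was 0.39 (adjusted p = 0.0358), which fell to 0.16 (adjusted p = 0.481) without animal 2. Brain values lay between -0.07 and 0.19, inside the musculus range, and the testis contrast exceeded the brain contrast by 0.75 (adjusted p = 0.00475).

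**Figure D2:**
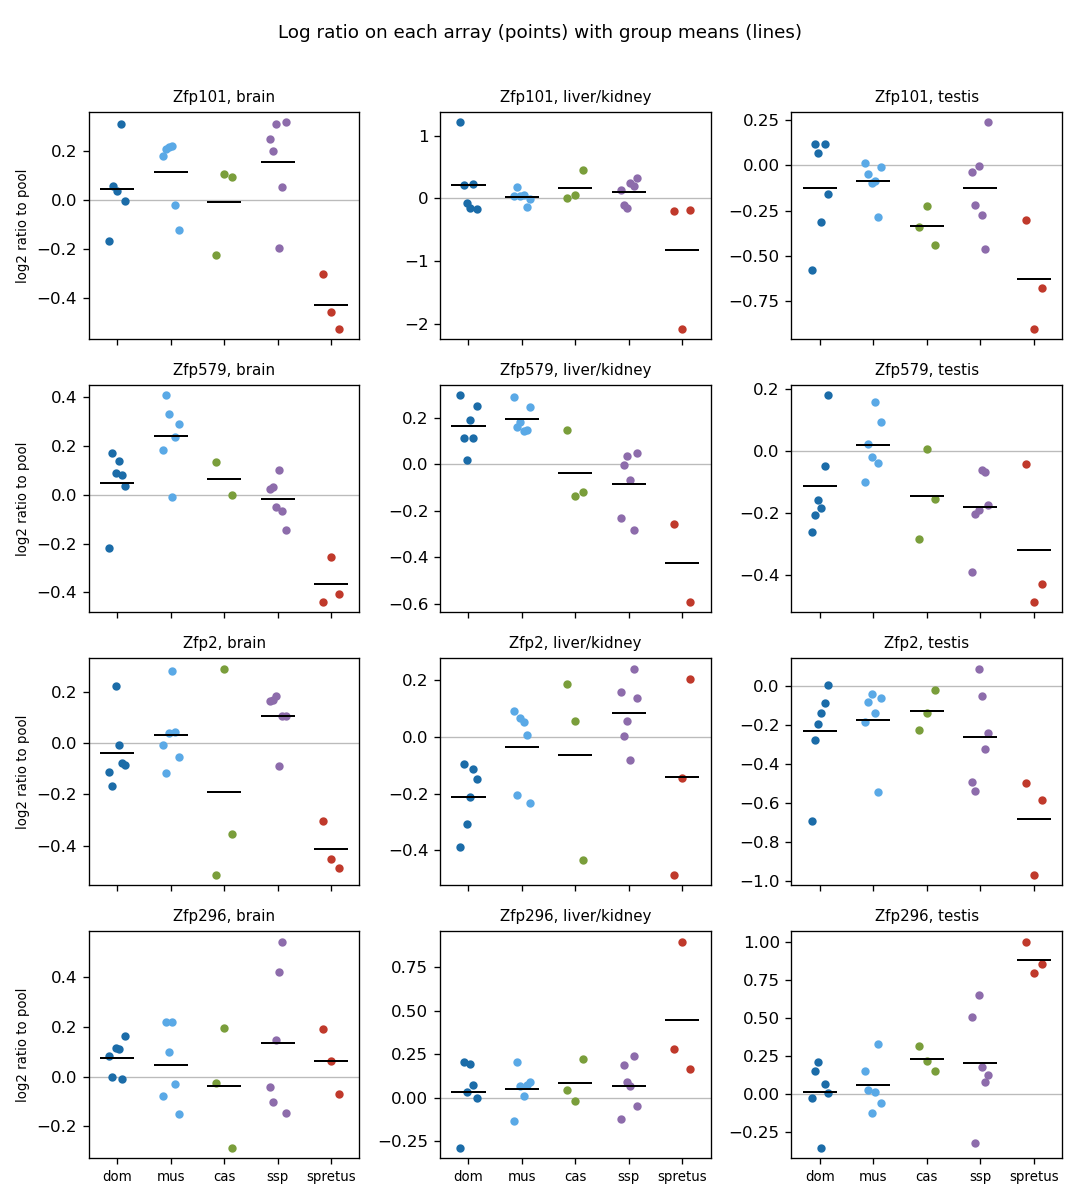
Log2 ratio to the pool on each array (points) and group means (black lines) for Zfp101, Zfp579, Zfp2 and Zfp296 in the 3 tissues, by group. Spretus lies below the musculus arrays for Zfp101 and Zfp579 in brain, above them for Zfp296 in testis, and a single spretus liver/kidney array reaches -2.08 for Zfp101.

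Across the 15 group means (3 tissues of 5 groups), the Zfp probe most like Zfp101 was Zfp579 (r = 0.848 among 195 compared), followed by Zfp871 (0.836) and Zfp64 (0.806). Those most like Zfp2 were Zfp950 (0.902), Zfp40 (0.899) and a Zfp719 probe (0.890), and those most like Zfp296 were Zfp825 (0.894), Zfp639 (0.808) and the other Zfp719 probe (0.746). These means share arrays, pools and the spretus animals, so the values are descriptions.

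In brain the other calls were all lower in spretus. Zfp42 (Rex1), a marker of embryonic stem cells, had spretus values of -0.20, -0.20 and -0.13, below all 21 musculus values, and the smallest difference of the 6, -0.25 (adjusted p = 0.0335). A Zfp719 probe held -0.47, -0.25 and -0.34, also below all 21, with a difference of -0.41 (adjusted p = 0.0236). A Zfp52 probe held -0.20, -0.17 and -0.29 and overlapped 1 cas value, with a difference of -0.34 (adjusted p = 0.0316). Over all probes with 3 spretus values, 2.24% had spretus wholly outside the musculus range in brain, and 5 of 196 Zfp probes did (2.55%). All 3 of these calls were lost when a spretus array was left out: Zfp42 and Zfp52 without any one of the 3, and Zfp719 without animal 1 or animal 3.

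Testis held the largest rises. Zfp248 had spretus values of 0.84, 0.91 and 0.78, against a musculus range of -0.71 to 0.63, and the difference was 0.80 ± 0.14 (adjusted p = 0.000375). A Zfp719 probe held 0.67, 0.58 and 0.44, above all 21 musculus values, with a difference of 0.63 (adjusted p = 0.000564). Both stayed called in each fit that left out 1 array, but the other Zfp719 probe lay on the opposite side of 0, so the direction of that gene is uncertain. Within class 2, Zfp248 differed by 0.93 from mus (adjusted p = 0.0505) and by 0.62 from cas (0.124), and the Zfp719 probe by 0.60 from mus (0.0551) and by 0.67 from cas (0.0263). Quantile normalisation took Zfp248 to 0.44 (adjusted p = 0.293). Zfp825 had the largest fitted difference, 1.45 ± 0.44 (adjusted p = 0.0367), from spretus values of -0.08, 3.93 and 0.20. It was 0.16 (adjusted p = 0.815) without animal 2, so 1 array carried it. Zfp46 held 0.81, 0.43 and 0.22 and was higher by 0.40 (adjusted p = 0.00779), overlapping dom, whose highest value was 0.49. It was 0.24 (adjusted p = 0.125) without animal 1 and 0.22 (adjusted p = 0.225) after quantile normalisation, and 3 of 7 other settings kept the call.

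The testis members that fell were Zfp2, Zfp101, Zfp40 (-0.46), Zfp36l1 (-0.39), Zfp566 (-0.36), Zfp458 (-0.34), Zfp180 (-0.34) and Zfp507 (-0.32), with 2 smaller. Each of these 10 calls was lost in at least 1 fit that left out an array. Zfp40 held -0.31, -0.76 and -0.32 and was the only one below all 21 musculus values. Wholly outside the musculus range were 4 of 199 Zfp probes (2.01%) in testis, beside 3.63% of all probes. Zfp36l1, the mRNA decay factor, was called on 1 of its 2 probes, and the other probe gave 0.11 (adjusted p = 0.477). Of 5 spermatid marker probes in testis, 2 were lower in spretus (Odf1 and Prm1), and the mean of the list ran from -0.45 to 0.45 over the 3 spretus arrays. Of 6 spermatocyte probes, Ldhc was lower (-1.03, adjusted p = 0.00038), and the mean of that list was -0.16 in spretus (arrays from -0.28 to 0.023) against -0.054 to 0.018 in the other groups. Of 8 Sertoli probes 2 were higher and 1 lower, with Sox9 higher by 0.30 (adjusted p = 0.00838). The other calls were probes of Clu in opposite directions, 0.65 (adjusted p = 4.85e-05) and -0.63 (adjusted p = 0.0348). Markers listed for brain and kidney cells were called in testis too: Syn1 (1.05), C1qa (0.31), Umod (0.24) and Gad1 (0.21) higher, S100b (-0.21) lower. The part of cell makeup in the Zfp differences was not tested, and fewer cells of a type cannot be told apart from less RNA per cell.

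**Figure D3:**
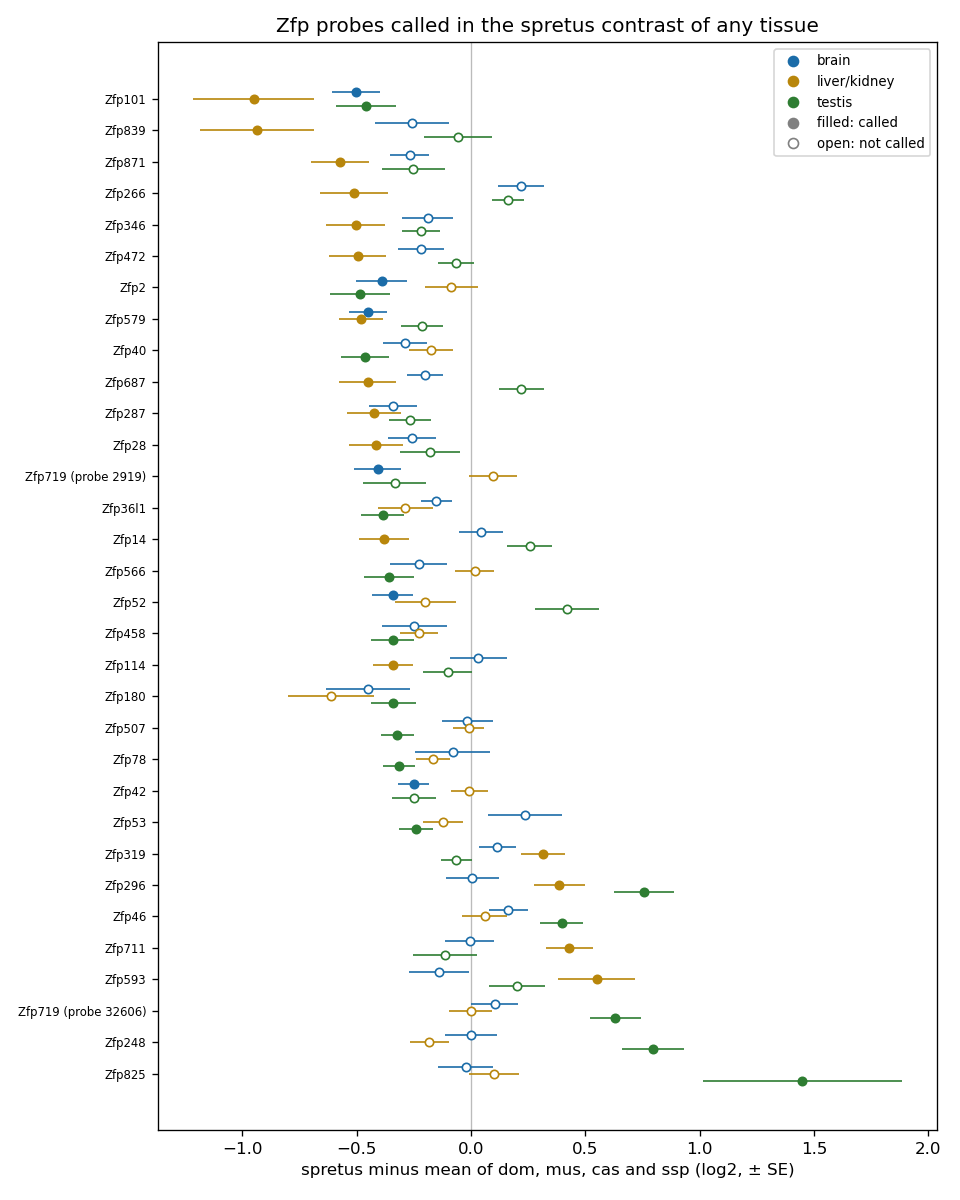
Difference of spretus from the mean of the 4 musculus groups (log2, with SE) in 3 tissues for each Zfp probe called in any of them. Filled points were called and open points were not. Zfp101 is filled in all 3 tissues, and Zfp266 and Zfp52 have values on both sides of 0.

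In liver/kidney 12 of the 16 calls were lower in spretus, and animal 2 lay at an extreme of many. After Zfp101 came Zfp839 (-0.94, spretus 0.17, -0.85 and 0.17), Zfp871 (-0.57, spretus -0.28, -0.84 and -0.24) and Zfp266 (-0.51, spretus 0.10, -0.27 and -1.25). Zfp346, which binds double-stranded RNA, was at -0.50 with values of -0.23, -1.08 and -0.11, and Zfp472 at -0.50 with values of -1.13, -0.87 and -0.60. Zfp687 was at -0.45 with values of -0.14, -0.64 and 0.09. Of the 14 called probes with all 3 spretus values, only Zfp101 lay wholly outside the musculus range. Among all Zfp probes 2 of 191 (1.05%) did so, beside 1.45% of all probes. Each of the 16 calls was lost in at least 1 fit that left out an array. Without animal 2 the difference became -0.60 for Zfp839, -0.38 for Zfp871, -0.20 for Zfp346 and -0.25 for Zfp687, and without animal 3 it became -0.12 for Zfp266 (adjusted p = 0.539), all of them no longer called. The count fell from 16 to 9 without animal 2, for which the count over all probes is not given here. It fell to 0 with the array class as a random block, where all probes fell from 1547 to 113. Of 9 hepatocyte marker probes in this tissue, 3 were lower in spretus (Alb, Fgb and Trf) and 0 higher, beside 4.46% and 3.03% of all probes. The mean of that list was -0.08 in spretus (arrays from -0.25 to 0.07) against 0.23 to 0.29 in the other groups. Of 8 kidney tubule probes, Umod was higher (0.72, adjusted p = 0.000957), and the mean of that list was -0.015 in spretus (arrays from -0.21 to 0.093) against -0.22 to -0.056 in the other groups. Markers listed for testis cells were called in this tissue too: Sycp3 (-1.58) and Rhox5 (-0.59) lower, Cyp11a1 (0.72), Sox9 (0.54) and Inhbb (0.30) higher. Calls were thus not limited to markers of liver and kidney cells. The part of cell makeup in the liver/kidney Zfp differences was not tested.

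The liver/kidney members that rose were Zfp593 (0.55), Zfp711 (0.43), Zfp296 and Zfp319 (0.32). Zfp711, an X-linked transcription factor, held 0.40, 0.58 and 0.33, against a musculus range of -0.35 to 0.49, with an adjusted p of 0.0119. Zfp593, which acts in ribosome assembly, had 2 spretus values, -0.30 and 0.49, of which the first lay inside the musculus range. Its call was lost in 20 of the 24 fits that left out 1 array, and its difference ran from 0.15 to 0.94 over the 24. Both ends of that range are fits with 1 spretus value. The Zfp319 call was lost in 15 of 24, and its difference was 0.20 without animal 2. Zfp711 was at 0.36 (adjusted p = 0.0981) without animal 2.

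**Figure D4:**
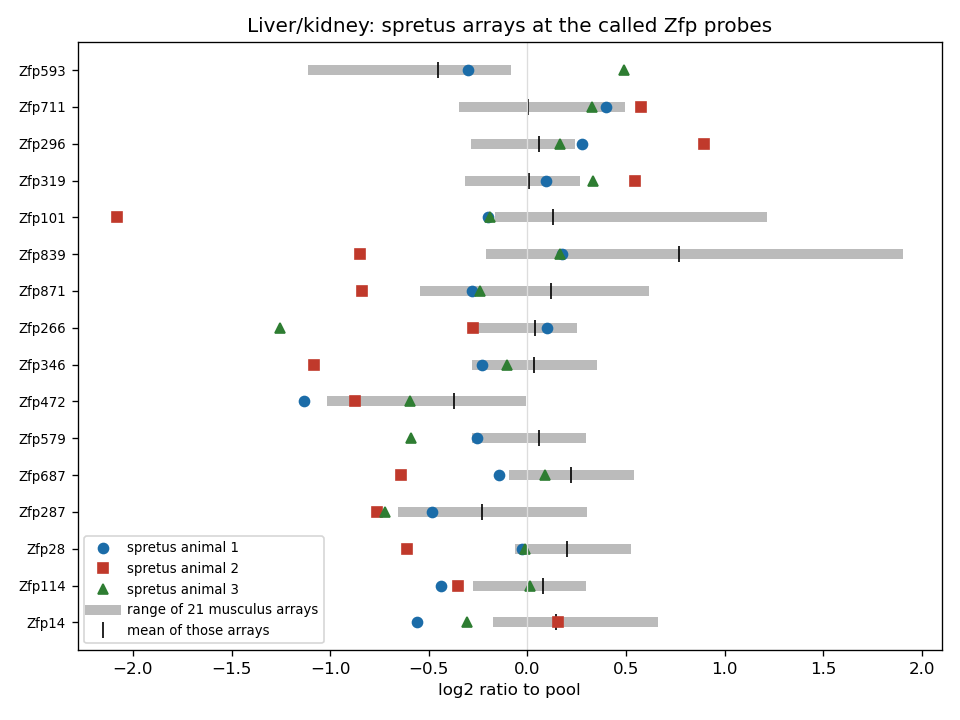
Log2 ratio to the pool of the 3 spretus liver/kidney arrays at each called Zfp probe, over the range (grey bar) and mean (tick) of the 21 musculus arrays. Animal 2 (red squares) is the lowest at Zfp101, Zfp839, Zfp871 and Zfp346 and the highest at Zfp296.

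The spretus contrast itself was compared between tissues for the 34 Zfp probes called in any contrast, using 1 model of all 72 arrays. Testis exceeded liver/kidney for Zfp248 by 0.98 (adjusted p = 1.98e-05), for Zfp14 by 0.64 (0.00249), for Zfp687 by 0.67 (0.00116) and for Zfp266 by 0.67 (0.00407). The liver/kidney side of the last 3 rests on single spretus arrays, since it was -0.22 for Zfp14 without animal 1, -0.25 for Zfp687 without animal 2 and -0.12 for Zfp266 without animal 3. Testis exceeded brain for Zfp248 by 0.80 (0.000878) and for the Zfp52 probe by 0.76 (0.00497), which was low in brain and at 0.42 in testis (adjusted p = 0.0606). For Zfp101 no pair of tissues was shown to differ (adjusted p of 0.512, 0.980 and 0.334). Over all tested Zfp probes 11 of 196 (5.61%) differed between testis and liver/kidney, beside 6.2% of other named probes. Between testis and brain 7 of 196 (3.57%) did, beside 3.04%, and between liver/kidney and brain 1 of 196 (0.51%), beside 2.04%.

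Among house mouse groups, Zfp94 and Zfp638 were lower in cas liver/kidney, and these were the only Zfp calls among them in the fits of all 5 groups. Zfp94 held -0.31, -0.29 and -0.63 in cas, while the lowest of the dom and mus arrays was -0.08, and its difference was -0.44 ± 0.08 (adjusted p = 0.0118). Zfp638, linked to fat cell differentiation, held -0.12, -0.29 and -0.64, overlapping dom and mus, whose lowest was -0.14, with a difference of -0.35 (adjusted p = 0.0365). Without cas animal 3 neither passed, and all 3 cas arrays are of class 2 while dom and mus held only class 1 arrays, so class and group cannot be told apart here. In fits of class 1 liver/kidney arrays alone, which hold 6 arrays each of dom, mus and ssp, 2 of 196 Zfp probes were called between ssp and dom (1.18% of all probes) and 2 between ssp and mus (0.959%). Against dom, ssp was higher for Zfp930 (0.35, adjusted p = 0.0378) and Zfp950 (0.38, adjusted p = 0.0323). Against mus, ssp was lower for Zfp579 (-0.28, adjusted p = 0.0474) and higher for Zfp740 (0.50, adjusted p = 0.0428). These 4 were named after their values were seen. For Zfp930, Zfp579 and Zfp740 ssp and the compared group did not overlap. That adds no support, since the test on the same arrays picked these probes and the share over all probes was not counted. The members nearest the threshold in the fits of all 5 groups were not called. Zfp462, which acts in heterochromatin and stem cells, differed by 0.38 in ssp brain (adjusted p = 0.0595). Zfp36l1 was at -0.24 between mus and dom in brain (adjusted p = 0.093), Zfp958 at -0.50 in cas brain (0.12) and Zfp472 at -0.41 between mus and dom in liver/kidney (0.15).

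Different probes of a gene often disagreed. There were 147 genes with 1 probe, 24 with 2 and 3 with 3. Of 26 genes with several tested probes, all probes had the same sign in the spretus contrast for 13 (brain), 9 (liver/kidney) and 10 (testis), and no gene was called on 2 probes in 1 tissue. Zfp719 gave -0.41 (called) and 0.10 in brain and -0.33 and 0.63 (called) in testis. Zfp287 gave -0.43 (called), -0.03 and 0.06 in liver/kidney, a gene chosen here after its values were seen. The spretus calls of Zfp719, Zfp287, Zfp36l1 and Zfp52 are uncertain, since no other probe of these genes was called in the same tissue.

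**Figure D5:**
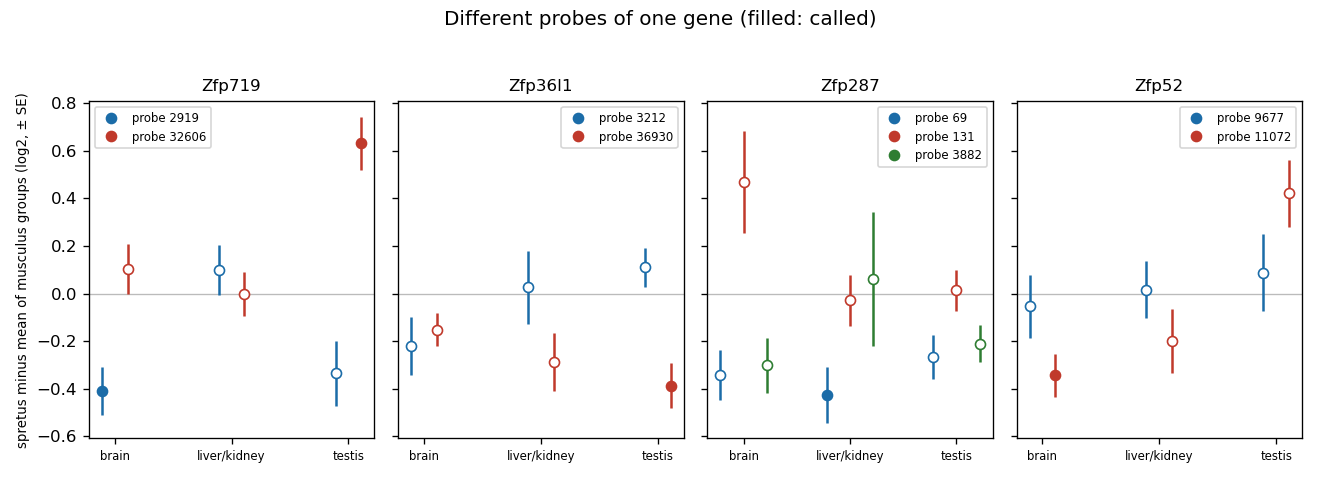
Spretus difference (log2, with SE) in 3 tissues for each probe of Zfp719, Zfp36l1, Zfp287 and Zfp52. Filled points were called. The 2 Zfp719 probes lie on opposite sides of 0 in testis.

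Of the 174 Zfp genes, 90 (51.7%) had another Zfp gene as a direct neighbour in RefSeq, against 2.15% of other protein-coding genes. The share was 18 of 33 (54.5%) among genes called in any contrast and 72 of 141 (51.1%) among those not called. Zfp52 and Zfp53 are neighbours, and so are Zfp28 and Zfp78, all chosen after their values were seen. Each of these genes was called lower in spretus, but the members of a pair in different tissues. In testis, where Zfp53 was called lower, the Zfp52 probe called in brain was higher in spretus but not called.

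Calls among genes that KRAB zinc finger proteins work through were too few to set apart from the share over all probes. Of 28 listed genes of the KRAB corepressor complex and heterochromatin, 22 were measured in brain and liver/kidney and 23 in testis. Called were 1 of 25 probes (brain), 2 of 25 (liver/kidney) and 1 of 26 (testis), beside 3.95%, 7.49% and 9.42% of all probes. Dnmt1, the maintenance DNA methyltransferase, was lower in spretus brain (-0.35, adjusted p = 0.0465) and liver/kidney (-0.88, adjusted p = 0.00345). Smarcad1, a chromatin remodeller, was lower in liver/kidney (-0.50, adjusted p = 0.00714), and Dnmt3b, a de novo methyltransferase, was higher in testis (0.27, adjusted p = 0.0154). No other member of the list was called in these contrasts, and its median difference was -0.01, -0.07 and 0.01 in brain, liver/kidney and testis. Over the lists of Zfp roles (mRNA decay, stem cells and imprinting, germ line, neural and glial development, fat cell fate, general transcription and RNA, retroelement silencing), the calls were Zfp42, Zfp296 and Zfp36l1. None of the 6 germ line probes and neither retroelement silencing probe was called in any spretus contrast, and at these shares of all probes called nothing can be read from a count of 0 among so few.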

How the data were processed

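Gene expression was measured on 72 two-colour arrays, and the authors deposited 1 log ratio per spot in a single table, with the log base, the centring and the direction not stated in the sources used here. The deposited values were read as log2 of sample over pool, and no step that the authors took before depositing them, such as a background correction or normalisation, is given in the sources used here. They run from -5.71 to 5.77, and array medians run from -0.045 to 0.055. Duplicate spots were averaged, which gave 22089 probes from 46128 spots, of which 42825 to 44832 held a value on an array. Single spots without a duplicate (1488) were left out. Of the probes, 15801 had 1 gene symbol, 294 several and 5994 none in the platform annotation. All 204 Zfp probes matched RefSeq by gene identifier.

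Each array was centred on its median. The 5 groups of a tissue were fitted together with limma 3.58.1 in R 4.3.3 (lmFit and eBayes, two-sided), so that cas and spretus, with 3 arrays each, share 1 estimate of the spread. A probe needed at least 2 values in each group, or 1 in the fits that left out an array. The p-values were adjusted over all probes of the tissue, and the threshold was 0.05. The spretus contrast was compared between tissues in a single fit over every array, the animal being a random block (correlation 0.020). Arrays were put into 3 classes by their pattern of missing spots. Pairs of groups were also fitted within a class, a choice made after seeing the data. The scripts were tested on simulated data. The number of arrays limits the precision. The text names, for each spretus contrast, up to 8 called Zfp probes in each direction, up to 4 in the other contrasts, genes called in several tissues, their other probes and members of the role lists. The members and lists were chosen with earlier results of these data known. The alternatives were no centring, quantile normalisation, array weights, the animal number as a block, the array class as a fixed term or a random block, probes present on every array, 1 mean per gene and leaving out each array.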

Additional observations from a re-analysis of the deposited data

Results flagged for a closer look

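An array far from the rest of its group of 6 was seen in 14 of 126 groups checked, where the rule flags about 1 in 20 for normal values in independent groups. In brain these were Zfp579 in dom (-0.22, animal 1), Zfp2 in ssp (-0.088, animal 4) and Zfp42 in ssp (0.28, animal 6). In liver/kidney they were Zfp101 in dom (1.21, animal 1), Zfp266 (-0.27) and Zfp687 (-0.094) in mus animal 8, Zfp287 in ssp (0.069, animal 5) and the median of Zfp probes relative to other named probes in ssp (0.031, animal 3). In testis they were Zfp719 in ssp (-0.62, animal 2), Zfp2 (-0.55), Zfp101 (-0.28), Zfp566 (-0.17) and Zfp458 (-0.43) in mus animal 7, and Zfp566 in dom (-0.67, animal 1). Mus animal 7 accounts for 4 of the testis values, and dom animal 1 is the only class 3 array of that tissue. The groups checked share arrays, so they are not independent. Only called Zfp probes and the Zfp median were checked. The share over all probes was not counted, so the flags cannot be read as particular to these members.

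The spretus contrast differed between tissues, by the limma test of the difference itself, at 16 combinations of probe and tissue pair. Only the 34 Zfp probes already called on these arrays were counted, and a call in 1 tissue favours such a difference. Of all tested Zfp probes 0.51% (liver/kidney minus brain), 3.57% (testis minus brain) and 5.61% (testis minus liver/kidney) differed. The shares of all probes were 1.9%, 2.96% and 5.98%. Liver/kidney minus brain was -0.73 for Zfp266 (adjusted p = 0.00641). Testis minus brain was 0.75 for Zfp296 (0.00475), 0.76 for Zfp52 (0.00497), 1.47 for Zfp825 (0.0183), 0.53 for Zfp719 (0.0279) and 0.80 for Zfp248 (0.000878). Testis minus liver/kidney was 0.62 for Zfp52 (0.0209), 0.67 for Zfp687 (0.00116), -0.38 for Zfp319 (0.0292), 1.35 for Zfp825 (0.023), 0.67 for Zfp266 (0.00407), 0.88 for Zfp839 (0.0473), 0.63 for Zfp719 (0.00316), -0.54 for Zfp711 (0.0408), 0.98 for Zfp248 (1.98e-05) and 0.64 for Zfp14 (0.00249). The Zfp825 testis difference was 0.16 without spretus animal 2. In liver/kidney, the difference was -0.12 for Zfp266 without spretus animal 3 and -0.22 for Zfp14 without animal 1. Without animal 2 it was -0.25 for Zfp687, -0.60 for Zfp839 and 0.20 for Zfp319. The comparison between tissues was not repeated without these arrays.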

How the results depend on the processing

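No called Zfp probe changed sign under the alternatives run per probe, which leave out the mean per gene. Counts over all probes on leaving out an array are not given here, so the ranges below cannot be read as particular to Zfp probes. In spretus brain (6 calls) quantile normalisation gave 15, array weights 39 and the array class as a term 15, and leaving out an array gave 3 to 15 (3 without spretus animal 1 or 3, 15 without cas animal 3). Over all probes, the settings named before leaving out gave 1181, 3187 and 1191 calls in that order, beside 814. In spretus liver/kidney (16 calls) quantile normalisation gave 7, array weights 6, the replicate block of animal numbers 2 and the class as a random block 0, and leaving out an array gave 9 to 19 (9 without spretus animal 2). Over all probes, the settings named before leaving out gave 899, 719, 632 and 113 calls in that order, beside 1547. The class as a fixed term could not be fitted there for the cas, ssp and spretus contrasts. In spretus testis (15 calls) quantile normalisation gave 1, array weights 23, the replicate block 6, the class as a term 6 and as a random block 8, and leaving out an array gave 6 to 21 (6 without spretus animal 2). Over all probes, the settings named before leaving out gave 486, 2330, 1085, 785 and 1368 calls in that order, beside 1956. In cas liver/kidney (2 calls) the replicate block and the random block each gave 0, and leaving out an array gave 0 to 5 (0 without cas animal 3, 5 without cas animal 1, and 1 without dom animal 1, 6 or 13 or mus animal 2, 3, 7 or 8). Over all probes these 2 blocks gave 13 and 0 calls, beside 230.

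Among contrasts without a call, mus minus dom gave 4 in brain under quantile normalisation, 4 in brain and 4 in liver/kidney under array weights, and 0 to 1 in brain on leaving out an array. Over all probes the first 3 of these were 322, 383 and 319 calls, beside 46 in brain and 122 in liver/kidney. The ssp contrast in brain gave 1 without centring (all probes 22, beside 20 with it) and 0 to 2 on leaving out an array (2 without cas animal 2, 1 without ssp animal 3). The cas contrast gave 1 in testis under array weights (all probes 100, beside 4 without weights) and, in brain, 0 to 10 on leaving out an array (10 without cas animal 2, 3 without cas animal 1). The causes were not tested. Animal numbers of different groups are different animals: arrays of different groups with the same number correlated at a median r of -0.0085, 0.0018 and -0.034 in brain, liver/kidney and testis, so the replicate block is only a check. With 3 spretus arrays and duplicate spots at a median r of 0.559, small differences were not detectable.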
